A study of Mus musculus with 10 samples.

Results

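The 9 retinoid genes described here are Adh1, Aldh1a1, Aldh1a2, Crabp1, Crabp2, Cyp26b1, Rara, Rarb and Rarg, out of 28165 genes in the deposited table, and all 9 have a row in it. They were chosen by function, as enzymes that make or degrade retinoic acid, proteins that bind it and its receptors, after Adh1 had stood out between the genotypes in these same data. The difference in Adh1 is therefore given as a description with no test. The rule used no values for the other 8, but they too were chosen with earlier results of these data known. At embryonic day 15.5, RNA of aortic smooth muscle cells from mouse embryos was sequenced in 5 Eln-/- libraries, which lack elastin, the core protein of elastic fibres, and in 5 Eln+/+ libraries. All embryos carried an Acta2-GFP reporter and came from intercrosses of Eln heterozygous mice. The collagenase-digested aortas were sorted for cells with GFP and without the endothelial protein CD31 or the dead-cell dye DAPI, and no treatment was given. Cells of any type that make the reporter would pass that gate. The sources used here give neither the allele of Eln, nor how many embryos each library holds, nor if replicates come from different embryos. The p-values below therefore reflect spread between libraries, part or all of which may be technical.

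Retinoic acid is made from vitamin A by successive oxidation. Alcohol and retinol dehydrogenases turn retinol into retinal, which the retinaldehyde dehydrogenases of the Aldh1a family turn into retinoic acid. Inside the cell Crabp proteins bind the acid, Cyp26 enzymes of the cytochrome P450 family degrade it, and the receptors Rara, Rarb and Rarg, paired with retinoid X receptors, bind DNA elements and switch target genes with it. In the mouse embryo the pathway is known for patterning the outflow tract and the arch arteries, from which the proximal aorta forms.

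The libraries differed widely in depth and in the number of genes detected. Their total estimated counts were 28367780 to 56371507 in Eln-/- and 26951733 to 63866416 in Eln+/+. Eln-/- replicates 4 and 5 and Eln+/+ replicate 1 stood apart, with at least 1 count for 15089 to 15925 genes, against 18157 to 22951 genes in the other 7 libraries. These 3 libraries are called the sparse libraries below, and for some genes the results are given with and without them. Eln itself had 36, 1, 0, 1 and 0 counts in Eln-/- replicates 1 to 5 and was at 159 to 1214 CPM in the Eln+/+ libraries, where the unit CPM sets each count against its library's scaled total. The log2 fold change of Eln was -12.19 (SE 1.64), with an adjusted p of 0.152 (quasi-likelihood test of edgeR), above the threshold of 0.05.

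The sorted cells carried smooth muscle transcripts, with Acta2 at 601 to 1742 CPM in Eln-/- libraries, against 473 to 1195 CPM in Eln+/+ libraries. Summed over 10 smooth muscle markers, Tagln included, levels were 1170 to 3997 CPM in Eln-/- libraries, against 966 to 2496 CPM in Eln+/+ libraries. Of the 10, 8 had positive log2 fold changes and 2 negative ones. Cnn1 and Myl9 had their lowest values at 16.6 and 82.9 CPM. Myh11 was at 0.0377 to 119 CPM in Eln-/- and 1.47 to 34.5 CPM in Eln+/+. Myocd had no count in Eln-/- replicate 5 and Eln+/+ replicate 3, nor did Smtn and Des in Eln+/+ replicate 1. Fibroblast transcripts were also abundant, and 11 markers led by Dcn and Mfap5 summed to 1866 to 3830 CPM in Eln-/- libraries, against 3127 to 5809 CPM in Eln+/+ libraries. Markers of red blood cells, led by Hbb-bs and Hba-a2, summed to 22.3 to 5162 CPM in Eln-/- libraries, against 331 to 18910 CPM in Eln+/+ libraries, and markers of cardiac muscle, led by Myl7 and Actc1, to 31.7 to 945 CPM in Eln-/- libraries, against 11.1 to 972 CPM in Eln+/+ libraries. The highest sum in each genotype was lower for mesothelium and epicardium (led by Upk3b and Krt19) and for endothelium (led by Egfl7 and Tek). This order did not hold in every library. Mesothelium and epicardium markers summed to 22.5 to 165 CPM in Eln-/- libraries, against 23.4 to 225 CPM in Eln+/+ libraries. Endothelial markers summed to 35.7 to 53.0 CPM in Eln-/- libraries, against 15.0 to 88.5 CPM in Eln+/+ libraries. Neural crest, Schwann cell and neuron markers, Tubb3 among them, reached at most 11.9 CPM in Eln-/- libraries, against 22.0 CPM in Eln+/+ libraries, leukocyte markers (led by Lyz2 and Tyrobp) at most 8.16 CPM in Eln-/- libraries, against 14.6 CPM in Eln+/+ libraries, and epithelial and hepatocyte markers (led by Alb and Apoa1) at most 1.39 CPM in Eln-/- libraries, against 0.903 CPM in Eln+/+ libraries. The highest red blood cell sum of each genotype was in a sparse library, Eln-/- replicate 4 and Eln+/+ replicate 1. No marker of any list was at 0 in all 10 libraries, and 0 of those tested passed. Many of the low markers were not tested, since the filter kept 3 of 9 for endothelium, 3 of 7 for neural crest, 5 of 8 for cardiac muscle, 7 of 8 for red blood cells, 1 of 7 for leukocytes and 0 of 5 for epithelium and hepatocytes.

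Among the retinoid genes, the binding proteins Crabp1 and Crabp2, the enzyme Adh1 and the receptor Rara had counts in every library, while Aldh1a2 and the degrading enzyme Cyp26b1 had counts in 7 of 10. Per length, Crabp1 led in both genotypes, at 297 ± 172 CPM per kb of exon in Eln-/- and 247 ± 115 in Eln+/+ (SD, n = 5 each). Crabp2 came next in both, at 59.0 ± 7.76 CPM per kb in Eln-/- and 49.0 ± 33.1 in Eln+/+, then Adh1, at 10.6 ± 6.41 CPM per kb in Eln-/- and 38.3 ± 19.6 in Eln+/+. In Eln+/+ the levels of Crabp2 and Adh1 differed by less than either SD. The 3 receptors and both Aldh1a genes lay between 1.504 and 6.40 CPM per kb in either genotype, where neighbours in the order of levels differed by less than 1 SD, and Cyp26b1 was last, at 0.116 ± 0.221 CPM per kb in Eln-/- and 0.172 ± 0.227 in Eln+/+. In bulk samples of sorted cells, fewer cells of a type and less RNA per cell cannot be told apart.

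No retinoid gene passed the threshold of 0.05 between Eln-/- and Eln+/+ in edgeR, 0 higher and 0 lower of 8 tested, where 0% of the 15718 genes tested passed in either direction. Of the 7 tested genes other than Adh1, 0 had an unadjusted p under 0.05, against 0.369% higher and 0.146% lower of all genes, and none of the 8 passed with DESeq2 or with limma-voom. Log2 fold changes were positive for 4 of the 8 and negative for 4, with a median of 0.03 beside 0.02 for all genes tested. Over all genes tested, 48.5% were negative. Adh1 was the 1 member whose genotypes did not overlap in CPM, with every Eln-/- library below every Eln+/+ library. That holds for 0.165% of all genes, the reverse for 0.14%, and since Adh1 was picked for this pattern nothing is read from it.

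**Figure D1:**
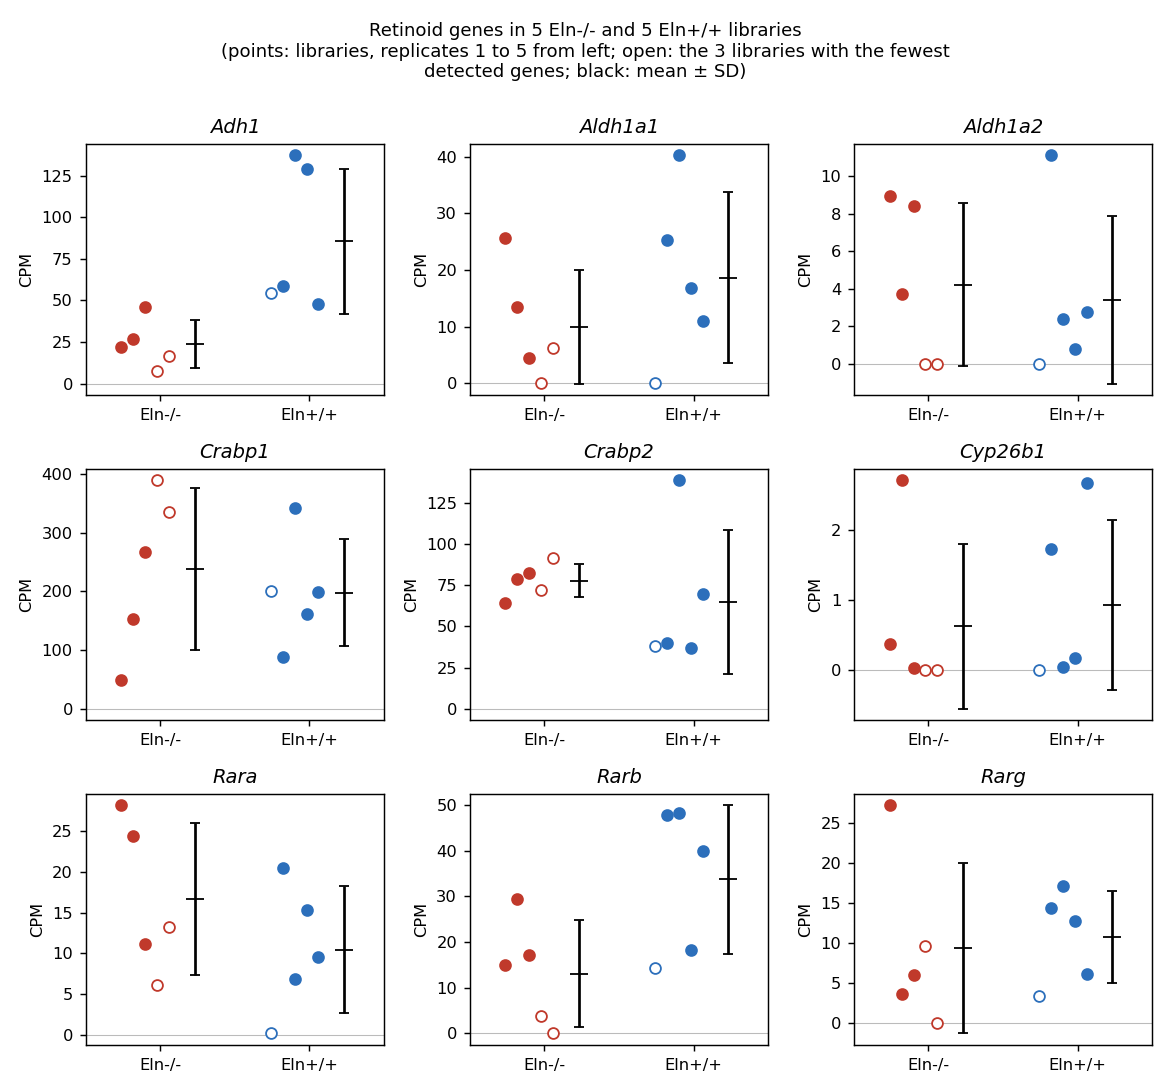
CPM (vertical axes) of the 9 retinoid genes in 5 Eln-/- libraries (red, left in each panel) and 5 Eln+/+ libraries (blue, right). Each point is 1 library, replicates 1 to 5 from the left, open points are the 3 sparse libraries, and black marks are the mean ± SD. Adh1 lies between 7.33 and 45.8 CPM in Eln-/- and between 48.1 and 137 CPM in Eln+/+, and the points of the 2 genotypes overlap in the other 8 panels.

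Adh1, an alcohol dehydrogenase that oxidises retinol as well as ethanol (chromosome 3, 138260991 to 138290698, plus strand, mm10), was at 22.3, 26.7, 45.8, 7.33 and 16.4 CPM in Eln-/- replicates 1 to 5. It was at 54.7, 58.4, 137, 129 and 48.1 CPM in Eln+/+ replicates 1 to 5. All 5 Eln-/- libraries lay below the lowest Eln+/+ library in CPM, by 45.8 against 48.1 CPM at the narrowest point. Eln+/+ replicates 3 and 4 stood well above the rest of their group. The lack of overlap rests on the scaling of library totals, whose TMM factors ran from 0.486 to 1.37. Eln+/+ replicate 1 (factor 0.562) had 827 Adh1 counts of 26951733 in total. Eln-/- replicate 3 (factor 1.16) had 2148 of 40444163. On unscaled totals these 2 libraries come in the reverse order. The means were 23.7 ± 14.3 CPM in Eln-/- libraries, against 85.4 ± 43.7 CPM in Eln+/+ libraries (SD, n = 5 each), and the log2 fold change of Adh1 was -1.85 (SE 0.56). Without the 3 sparse libraries the means were 31.6 ± 12.5 CPM in Eln-/- (n = 3) and 93.1 ± 46.4 CPM in Eln+/+ (n = 4), and the log2 fold change of Adh1 was -1.54 (SE 0.47). In the family of class I and class III alcohol dehydrogenases, Adh1 made up 19.9% to 47.4% of the summed CPM per kb of Adh1 and Adh5 in Eln-/- libraries and 45.3% to 80.4% in Eln+/+ libraries. Exons of Adh1 overlap those of Gm16559 on the other strand over 136 bases, and that gene had at most 8 counts in any Eln-/- library and 32 in any Eln+/+ library.

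Libraries high in Adh1 were mostly high in the summed fibroblast markers too. The 11 markers summed to 3830, 2558, 2809, 1893 and 1866 CPM in Eln-/- replicates 1 to 5 and to 3493, 4084, 5809, 5298 and 3127 CPM in Eln+/+ replicates 1 to 5. Eln+/+ replicates 3 and 4, highest for Adh1, were also highest for this sum, and Eln-/- replicates 4 and 5, lowest for Adh1, were lowest for it. Most of the sum was Mfap5 in the sparse Eln+/+ replicate 1 (2233 CPM) and Eln-/- replicate 4 (1312 CPM). Mfap5, Dpt and Tcf21 averaged higher in the sparse libraries than in the other 7, and the other markers lower. The averages were 1409 against 521 CPM for Mfap5 and 320 against 1444 CPM for Dcn, so the sum mixes markers that differ in this. Of the 11 markers, all of them tested, 8 had negative log2 fold changes and 3 positive ones, 0 passed the threshold in edgeR and none was at 0 in all libraries. Dcn, which encodes the matrix proteoglycan decorin, was at 138 to 1214 CPM in Eln-/- libraries, against 497 to 2798 CPM in Eln+/+ libraries. Both ratios that follow were added after these values were seen. As a share of the summed fibroblast markers, Adh1 was at 0.904% ± 0.479 in Eln-/- and 1.87% ± 0.488 in Eln+/+ (SD, n = 5 each), and Eln-/- replicate 3, at 1.63%, overlapped the Eln+/+ range of 1.43% to 2.43%. As a share of Dcn alone, Adh1 was at 1.83% to 5.83% in Eln-/- and 3.88% to 11% in Eln+/+, and 3 of 5 libraries of each genotype lay in the range that both share, from 3.88% to 5.83%. The part of fibroblast RNA in the Adh1 difference was not tested.

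**Figure D2:**
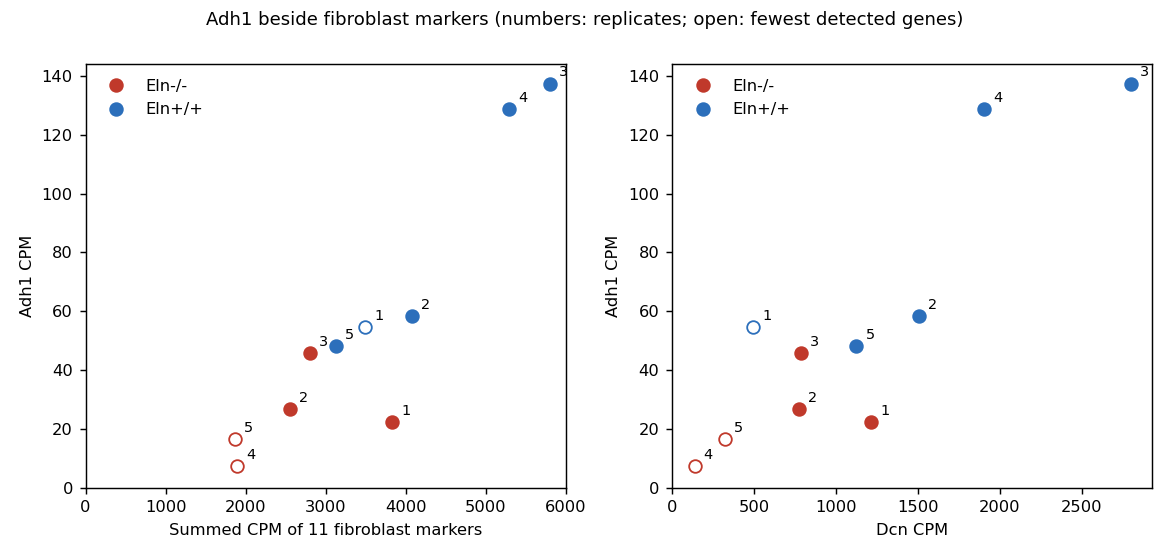
Adh1 CPM (vertical axes) against the summed CPM of 11 fibroblast markers (left) and against the CPM of Dcn (right), with 1 point per library, numbered by replicate, in red for Eln-/- and blue for Eln+/+, open for the 3 sparse libraries. Eln+/+ replicates 3 and 4 are highest on both axes, and Eln-/- replicate 1 has 3830 CPM of the markers with 22.3 CPM of Adh1.

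Ctso, Nr2f2 and Fez1 had the profiles nearest to that of Adh1 across the 10 libraries, among 4286 other genes averaging 5 or more in log2 CPM. The measure was the root mean square difference of centred log2 CPM, which was 0.52 for Ctso, a lysosomal cathepsin, 0.54 for Nr2f2, an orphan nuclear receptor, and 0.58 for Fez1, an adaptor of kinesin transport, against a median of 1.55. These distances rest on the same 10 libraries and include the difference between genotypes. Ctso was at 23.1 ± 14.4 CPM in Eln-/- libraries, against 46.2 ± 12.3 CPM in Eln+/+ libraries, and Fez1 at 13.3 ± 7.48 CPM in Eln-/- libraries, against 55.7 ± 17.1 CPM in Eln+/+ libraries (SD, n = 5 each).

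Among the members, Aldh1a1 and Aldh1a2 oxidise retinal, and neither differed between genotypes beyond its spread. Aldh1a1 (chromosome 19, 20492715 to 20643465, plus strand) was at 25.6, 13.5, 4.37, 0 and 6.14 CPM in Eln-/- replicates 1 to 5 and at 0, 25.2, 40.3, 16.7 and 11.03 CPM in Eln+/+ replicates 1 to 5. The 2 libraries with no count of Aldh1a1, Eln-/- replicate 4 and Eln+/+ replicate 1, were sparse, and the genotypes overlapped over most of their range. Aldh1a3, a retinaldehyde dehydrogenase outside the member list, was at 0.991 and 0.286 CPM per kb of exon in these 2 libraries. For Aldh1a1 the log2 fold change was -0.91 (SE 1.44, edgeR adjusted p = 1.00), and it was -0.65 without the sparse libraries, -1.64 without Eln-/- replicate 1 and -0.42 without Eln+/+ replicate 3.

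Aldh1a2, the main retinoic acid synthesising enzyme of the early mouse embryo (chromosome 9, 71215789 to 71296243, plus strand), was at 8.97, 3.74, 8.42, 0 and 0 CPM in Eln-/- replicates 1 to 5. It was at 0, 11.1, 2.37, 0.776 and 2.74 CPM in Eln+/+ replicates 1 to 5. All 3 sparse libraries had no count of Aldh1a2, which allows up to 0.218 and 0.113 CPM in Eln-/- replicates 4 and 5 and 0.198 CPM in Eln+/+ replicate 1, at 3 counts each and for counting error only. In Eln+/+ the mean of 3.41 ± 4.47 CPM rests on replicate 2, and in Eln-/- it was 4.22 ± 4.36 CPM (SD, n = 5 each). The log2 fold change of Aldh1a2 was 0.31 (SE 1.73, edgeR adjusted p = 1.00), and it was 0.73 (SE 0.93) without the sparse libraries, -0.17 without Eln-/- replicate 1 and 1.52 without Eln+/+ replicate 2. Mesothelium, where Aldh1a2 is a known marker in mouse, gave summed marker levels of 165, 118, 48.6, 29.2 and 22.5 CPM in Eln-/- replicates 1 to 5 and 23.4, 225, 86.1, 89.1 and 64.6 CPM in Eln+/+ replicates 1 to 5. Eln+/+ replicate 2 was highest in its genotype for both Aldh1a2 and this sum, as was Eln-/- replicate 1 in its own. The sparse libraries, with no count of Aldh1a2, had the lowest sums of their genotypes. Between these ends the orders differed. Eln-/- replicate 3 had more Aldh1a2 than replicate 2 (8.42 against 3.74 CPM) with a lower sum (48.6 against 118 CPM). From Eln+/+ replicate 4 to 3 to 5 the sum fell while Aldh1a2 rose. Of the 11 mesothelium and epicardium markers 9 were tested, 3 with positive and 6 with negative log2 fold changes, and 0 passed in edgeR. None was at 0 in every library, and the part of mesothelial RNA in the Aldh1a2 levels was not tested.

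The nearest profiles to Aldh1a2 were those of Abcf2, Peli1 and Vcp-rs, at root mean square differences of 1.17, 1.21 and 1.27 against a median of 3.12 over 4287 genes. Each of the 3 was below 10 CPM in all sparse libraries and above 10 CPM in the other 7, so the likeness largely describes the sparse libraries, where Aldh1a2 had no count. Vcp-rs is a copy related to Vcp, with which its reads may be shared.

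Crabp1 and Crabp2 encode the small proteins that hold retinoic acid in the cytoplasm, and Crabp2 is known to hand it to the receptors. Crabp1 (chromosome 9, 54764748 to 54773110, plus strand) was at 48.5, 153, 266, 389 and 334 CPM in Eln-/- replicates 1 to 5 and at 199.6, 88.7, 341, 160.4 and 199 CPM in Eln+/+ replicates 1 to 5. The Eln-/- libraries spanned the whole Eln+/+ range and beyond, from lowest in replicate 1 to highest in replicate 4. Crabp1 had a log2 fold change of 0.27 (SE 0.57, edgeR adjusted p = 1.00) and turned to -0.32 (SE 0.62) without the sparse libraries, of which Eln-/- replicate 4 held the highest Crabp1 level of all. With 1 library left out the value ranged from 0.03 without that replicate to 0.56 without Eln+/+ replicate 3. Pfn2, Nup37 and Ppp1ca had the nearest profiles to Crabp1, at root mean square differences of 0.33, 0.35 and 0.38 against a median of 1.19 over 4286 genes.

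Crabp2 (chromosome 3, 87948666 to 87953376, plus strand) was the steadiest member within Eln-/-, at 64.5, 78.8, 82.5, 72.3 and 91.6 CPM in replicates 1 to 5. It was at 37.9, 39.99, 139, 37.0 and 69.7 CPM in Eln+/+ replicates 1 to 5, so that 3 Eln+/+ libraries lay below every Eln-/- library and replicate 3 above them all. The coefficient of variation was 13.2% in Eln-/- and 67.7% in Eln+/+, and that difference in spread was not tested. With a log2 fold change of 0.27 (SE 0.45, edgeR adjusted p = 1.00), Crabp2 did not pass the test, and the value was 0.76 without Eln+/+ replicate 3. Crabp1 took 55.3% to 89.9% of the summed CPM per kb of both genes in Eln-/- and 78.5% to 89.7% in Eln+/+, with the low value in Eln-/- replicate 1.

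Cyp26b1, which degrades retinoic acid (chromosome 6, 84571414 to 84593908, minus strand), was barely detected. It had 27, 178, 1, 0 and 0 counts in Eln-/- replicates 1 to 5 and 0, 150, 2, 10 and 120 counts in Eln+/+ replicates 1 to 5. Counts above 100 came from 1 library of Eln-/- and 2 of Eln+/+, and none from the sparse libraries. It was removed by the filter on low counts and was not tested. Cyp26a1, another enzyme that degrades retinoic acid, was at 0 to 11.7 CPM in Eln-/- libraries, against 0 to 4.11 CPM in Eln+/+ libraries (log2 fold change of Cyp26a1 1.44, SE 2.01, edgeR adjusted p = 1.00), with 6 of 10 libraries holding a count.

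Per length of exon, Rarb was the leading receptor in most Eln+/+ libraries and in 1 of the Eln-/- libraries. Rarb (chromosome 14, 16430839 to 16819156, minus strand) was at 14.9, 29.4, 17.2, 3.85 and 0 CPM in Eln-/- replicates 1 to 5 and at 14.4, 47.8, 48.3, 18.3 and 39.8 CPM in Eln+/+ replicates 1 to 5. Eln+/+ replicates 2, 3 and 5 lay above every Eln-/- library, and Eln+/+ replicates 1 and 4 lay within the Eln-/- range. The means were 13.1 ± 11.7 CPM in Eln-/- libraries, against 33.7 ± 16.3 CPM in Eln+/+ libraries (SD, n = 5 each), with a log2 fold change of Rarb of -1.37 (SE 1.13, edgeR adjusted p = 1.00). Without the sparse libraries the means were 20.5 ± 7.80 CPM in Eln-/- (n = 3) and 38.5 ± 14.0 CPM in Eln+/+ (n = 4), and the log2 fold change of Rarb was -0.89 (SE 0.43). Exons of Rarb overlap those of Top2b and Gm48162 on the other strand over 2020 bases, and with no strand setting stated reads there cannot be assigned with certainty. Top2b, a DNA topoisomerase, was at 4.90 to 67.5 CPM in Eln-/- libraries, against 0.0661 to 49.5 CPM in Eln+/+ libraries, with its highest values in Eln-/- replicate 1 and Eln+/+ replicate 2.

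Rara (chromosome 11, 98927818 to 98974942, plus strand) was at 28.2, 24.4, 11.1, 6.10 and 13.3 CPM in Eln-/- replicates 1 to 5 and at 0.198, 20.4, 6.92, 15.3 and 9.54 CPM in Eln+/+ replicates 1 to 5. The highest values were those of Eln-/- replicates 1 and 2, and the lowest, from 3 counts, was the sparse Eln+/+ replicate 1. Rara had a log2 fold change of 0.66 (SE 0.90, edgeR adjusted p = 1.00), and of 0.72 (SE 0.52) without the sparse libraries, 0.36 without Eln+/+ replicate 1 and 1.06 without Eln+/+ replicate 2. Rarg (chromosome 15, 102234938 to 102257517, minus strand) was at 27.3, 3.58, 5.97, 9.66 and 0 CPM in Eln-/- replicates 1 to 5 and at 3.31, 14.3, 17.1, 12.8 and 6.10 CPM in Eln+/+ replicates 1 to 5. Eln-/- replicate 1 was above and Eln-/- replicate 5 below every Eln+/+ library. The log2 fold change of Rarg was -0.20 (SE 1.19, edgeR adjusted p = 1.00), and it was -1.17 without Eln-/- replicate 1 and 0.11 without Eln-/- replicate 5.

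Of the summed CPM per kb of the 3 receptors, Rarb made up 18.1%, 46.5%, 45.2%, 16.6% and 0% in Eln-/- replicates 1 to 5. Its share was higher in most Eln+/+ libraries, at 76.9%, 53.0%, 62.1%, 34.9% and 67.6% in replicates 1 to 5. Rarb was thus the largest share in 4 of 5 Eln+/+ libraries, with Rara at 35.1% in the fifth, while in Eln-/- it led only in replicate 3 and Rara and Rarb were level at 46.5% in replicate 2. Rara ranged over 31.8% to 100% in Eln-/- and 1.28% to 35.1% in Eln+/+, and Rarg over 0% to 51.6% in Eln-/- and 12.8% to 30.03% in Eln+/+. Sparse libraries hold the extremes of these shares, Eln-/- replicate 5 having counts of Rara alone. These shares were compared without a test, and exon lengths over all transcripts stand in for the isoforms present.

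**Figure D3:**
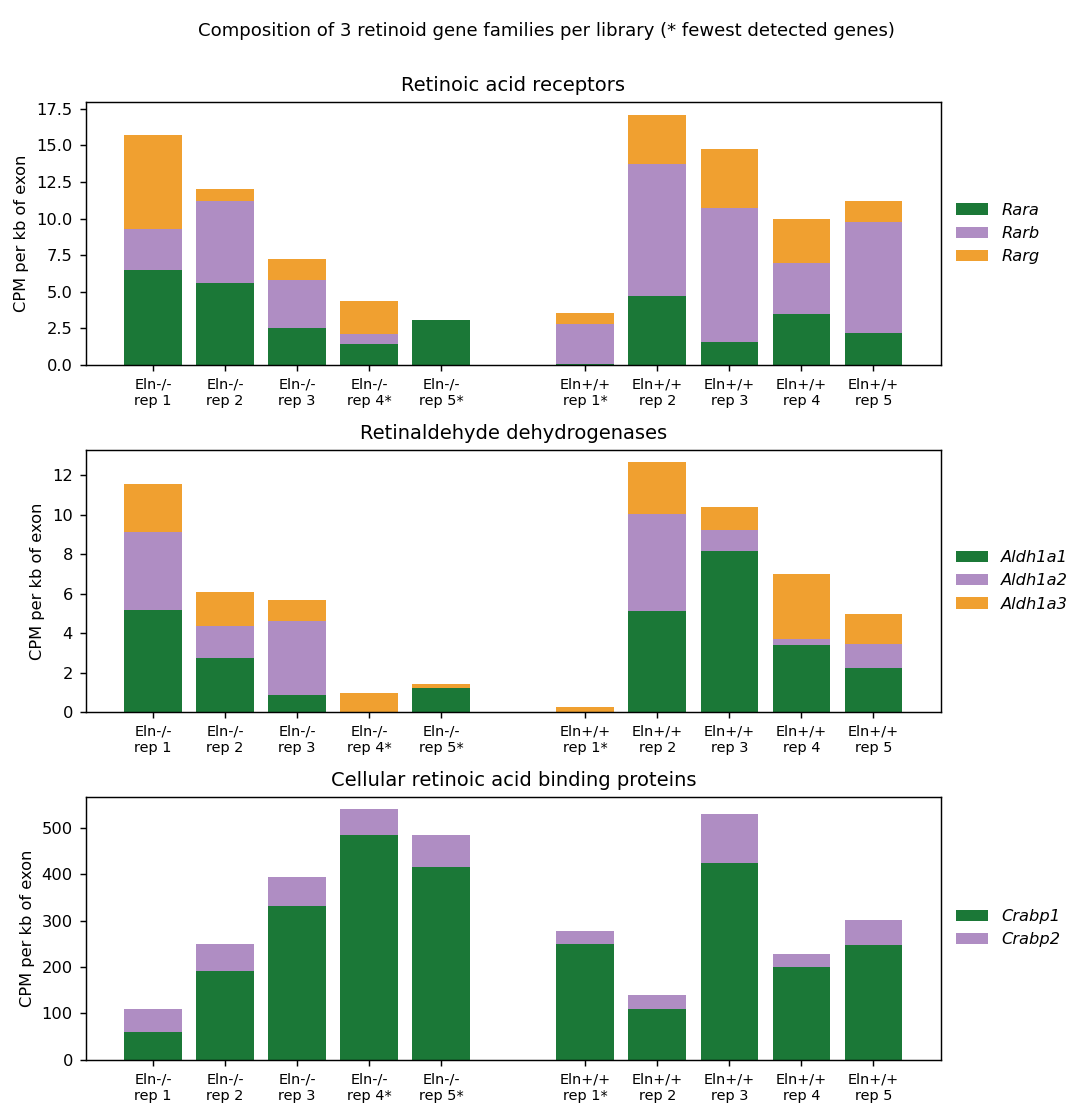
Stacked bars of CPM per kb of exon (vertical axes) for the retinoic acid receptors (top), the retinaldehyde dehydrogenases (middle) and the retinoic acid binding proteins (bottom) in each library, Eln-/- on the left and Eln+/+ on the right, with an asterisk on the 3 sparse libraries. Rarb is the largest receptor segment in 4 of 5 Eln+/+ libraries, and Crabp1 is the larger binding protein segment in all 10 libraries. The middle panel includes Aldh1a3, which is not a member.

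Rarb is known as a target of its own ligand through a retinoic acid response element, a direct repeat of a half-site of 6 bases with 5 bases between. The 250 bases before the RefSeq start sites (GRCm38.p6, the assembly of mm10) are shown for Rarb, for Cyp26a1, a target with the same kind of element, and for Adh1, the member that stood out. They are given 5′ to 3′ on the gene's strand, with the element in capitals, for the regions chr14:16575477-16575726 (minus), chr19:37697558-37697807 (plus) and chr3:138277335-138277584 (plus).
Rarb: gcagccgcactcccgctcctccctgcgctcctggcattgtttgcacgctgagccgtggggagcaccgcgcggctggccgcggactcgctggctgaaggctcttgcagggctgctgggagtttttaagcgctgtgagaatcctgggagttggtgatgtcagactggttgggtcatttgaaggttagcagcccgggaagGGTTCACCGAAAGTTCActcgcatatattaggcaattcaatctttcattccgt
Cyp26a1: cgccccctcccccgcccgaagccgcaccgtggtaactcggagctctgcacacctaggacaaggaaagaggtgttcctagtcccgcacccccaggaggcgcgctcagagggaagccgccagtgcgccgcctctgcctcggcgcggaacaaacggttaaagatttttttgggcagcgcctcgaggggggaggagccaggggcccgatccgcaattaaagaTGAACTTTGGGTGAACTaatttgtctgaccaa
Adh1: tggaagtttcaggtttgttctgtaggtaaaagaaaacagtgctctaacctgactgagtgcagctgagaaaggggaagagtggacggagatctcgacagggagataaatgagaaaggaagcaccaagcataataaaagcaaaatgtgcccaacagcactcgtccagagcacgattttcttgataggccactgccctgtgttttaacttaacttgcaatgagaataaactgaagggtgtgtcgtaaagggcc
The half-sites searched were AGGTCA or AGTTCA, and likewise GGGTCA or GGTTCA, on both strands, in windows from 250 bases before to 50 bases after each start. In Rarb the element runs from 53 to 37 bases before the start, on the gene's strand, and in Cyp26a1 from 32 to 16 bases before it, on the other strand. A direct repeat with 5 bases between was in 32 of 32851 promoters (0.0974%), and among 13 promoters of 8 of the 9 members in that of Rarb only. Repeats with 1 or 2 bases between, present in 0.222% and 0.268% of all promoters, were in none of the 13. The start sites used for Rarb (16575476) and Adh1 (138277585) lie inside the annotated spans of these genes and not at their ends, and Crabp2 has no entry. A match describes letters and not binding, and the absence of one covers these windows alone.

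The rest of the pathway was taken as a list of 40 genes of retinol uptake, oxidation, degradation and signalling, of which 33 are in the table and 23 were tested. Compared by edgeR, 0 were higher and 0 lower in Eln-/- at the threshold of 0.05, and 0 had an unadjusted p under 0.05. Of all 15718 genes tested in edgeR, 0% passed in either direction and 0.515% had an unadjusted p under 0.05. DESeq2 and limma-voom called none of the list. Log2 fold changes were positive for 14 and negative for 9, beside 48.5% negative over all genes tested. The median was 0.22 beside 0.02 for all genes tested. Fabp5, which can carry retinoic acid to other receptors, was at 57.9, 110, 212, 766 and 478 CPM in Eln-/- replicates 1 to 5 and at 472, 62.7, 114, 133 and 157 CPM in Eln+/+ replicates 1 to 5. All 3 sparse libraries had more Fabp5 than any other library, in both genotypes. Its log2 fold change was 0.79 (SE 0.75, edgeR adjusted p = 1.00), and 0.14 without the sparse libraries.

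Dhrs3, which reduces retinal back to retinol, was at 286 ± 67.0 CPM in Eln-/- libraries, against 395 ± 187 CPM in Eln+/+ libraries (SD, n = 5 each; log2 fold change of Dhrs3 -0.46, SE 0.43). Rdh10, a retinol dehydrogenase needed for retinal synthesis in the mouse embryo, was at 35.0 ± 22.5 CPM in Eln-/- libraries, against 28.3 ± 20.1 CPM in Eln+/+ libraries. The genotype means of Rdh10 differed by less than the SD within either genotype, while those of Dhrs3 differed by more than the SD in Eln-/- and by less than that in Eln+/+, and neither gene passed the test. The dehydrogenases and reductases Adh5, Rdh14, Dhrs4 and Rdh11 had log2 fold changes of 0.22, 0.02, -0.09 and -0.20, each within its SE. Without Eln+/+ replicate 3 the log2 fold change of Dhrs3 was -0.18. Dgat1, an acyltransferase that can esterify retinol, had the smallest p of the list, with a log2 fold change of Dgat1 of 0.72 (SE 0.56, edgeR adjusted p = 1.00) and of 0.15 without the sparse libraries. The corepressor Ncor1, which silences targets of unliganded receptors, had a log2 fold change of 0.99 (SE 0.91), and the coactivator Ncoa3 of 0.76 (SE 0.88). Eln-/- replicate 1 was the highest library for both cofactors, and without it the log2 fold changes were 0.54 for Ncor1 and -0.06 for Ncoa3. Exons of Ncor1 and Ncoa3 overlap other genes.

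A list of 28 genes known to respond to retinoic acid, 3 of them members and 5 in the list above, had 27 genes in the table and 23 tested. Again 0 were higher and 0 lower in edgeR, beside 0% of all genes tested in either direction. An unadjusted p under 0.05 was found for 0 of the list, beside 0.515% of all genes, and none passed with DESeq2 or limma-voom. There were 10 positive and 13 negative log2 fold changes, beside 48.5% negative over all genes tested. The median was -0.26 beside 0.02 for all genes tested. Nr2f2, an orphan nuclear receptor induced by retinoic acid, had the smallest p of the list and is also among the nearest profiles to Adh1. Nr2f2 was at 49.7, 48.2, 55.5, 6.68 and 33.5 CPM in Eln-/- replicates 1 to 5 and at 51.5, 78.7, 105, 94.1 and 61.4 CPM in Eln+/+ replicates 1 to 5. Only Eln-/- replicate 3 and Eln+/+ replicate 1 crossed, and the log2 fold change of Nr2f2 was -1.01 (SE 0.53, edgeR adjusted p = 1.00), and -0.71 (SE 0.24) without the sparse libraries. Exons of Nr2f2 overlap B130024G19Rik on the other strand over 643 bases. Rarres1 and Rarres2, named for their response to retinoids, had log2 fold changes of -1.18 (SE 0.98) and -0.61 (SE 0.67), and the homeobox gene Meis1 of -0.16 (SE 0.56). Eln+/+ replicate 1 held the highest level of both Rarres genes, and without it the log2 fold changes were -0.73 for Rarres1 and 0.18 for Rarres2. Exons of Rarres2 and Meis1 overlap those of other genes.

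**Figure D4:**
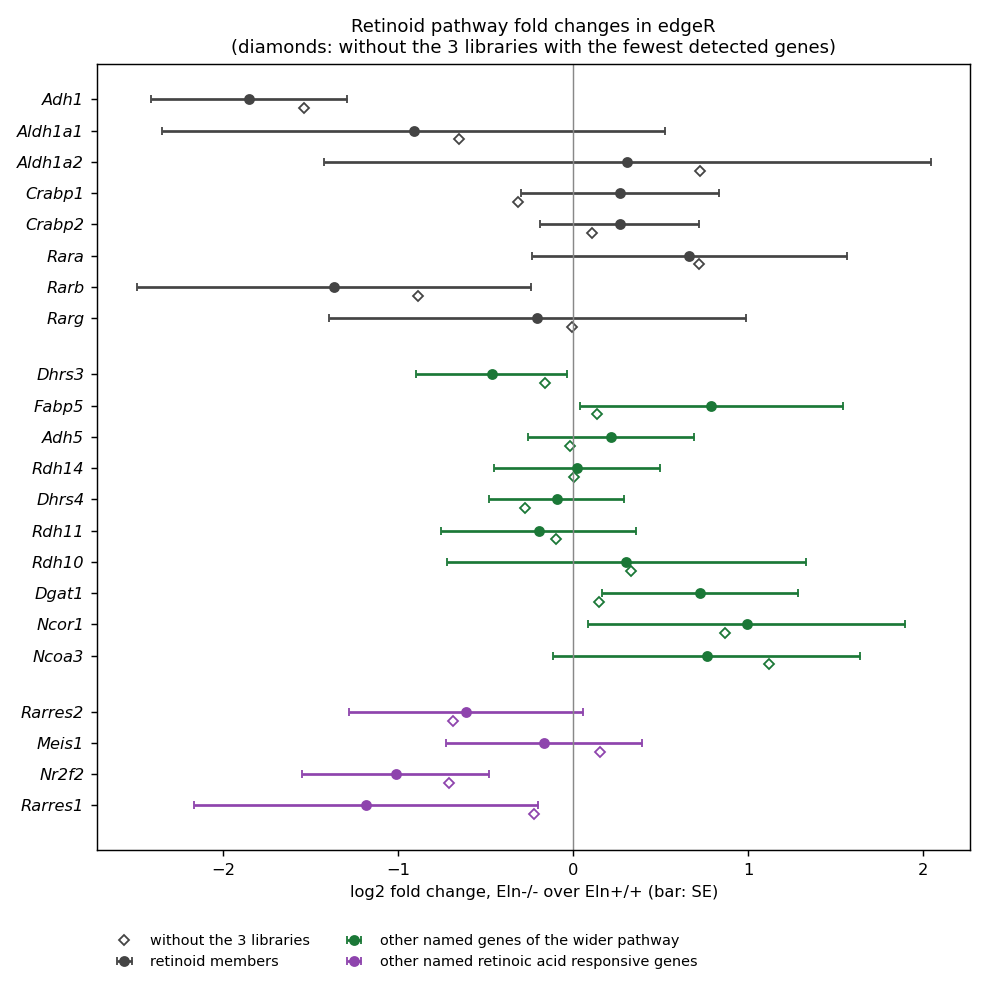
Log2 fold changes of Eln-/- over Eln+/+ (horizontal axis) in edgeR for the 8 retinoid members tested (grey), 10 named genes of the wider pathway (green) and 4 named responsive genes (purple), as points with bars of 1 SE from all 10 libraries. Diamonds are the values without the 3 sparse libraries. Adh1 is the lowest point, at -1.85, and Ncor1 the highest, at 0.99.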

How the data were processed

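In the table the authors deposited, each gene has 1 estimated count for every library, not scaled to depth, for 5 Eln-/- and 5 Eln+/+ libraries, with columns named as the samples are. STAR, DESeq2 and build mm10 are named, without versions, per the submitters' processing notes. How reads were counted (program, annotation, strand) is not given in the sources used here. The labels name a low-input kit for mRNA. In each library 23.5% to 48.8% of values were not whole (tolerance 1e-06), and counts were rounded. GENCODE M21 (GRCm38) holds the same span and strand for 27046 of 28165 genes (96.03%) and gave exon lengths and overlaps.

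Genes were kept by filterByExpr (15718), scaled with TMM factors and compared by edgeR's quasi-likelihood test on the genotype, two-sided, with Benjamini-Hochberg adjustment over all of them. Standard errors are the log2 fold change over the square root of F. CPM used the TMM factors, and log2 CPM a prior count of 2. The procedure was also run on simulated counts with planted differences, the outcome of which is not reported here. The members and lists were chosen with earlier results of these data known. The genes named were Eln, the members, the 8 most abundant and 6 smallest-p genes of the wider pathway, the 6 most abundant and 3 smallest-p responsive genes, 3 nearest profiles for each of Adh1, Aldh1a2 and Crabp1, and the 2 most abundant genes of each marker list. Some genes that this rule names are not reported here. Aldh1a3, Cyp26a1, Top2b and Gm16559 were added after their values were seen. Alternatives were RLE factors, no filter, DESeq2, limma-voom with sample quality weights, the replicate number as a block, each library left out, and the 3 sparse libraries left out. Software was edgeR 4.0.16 and, for alternatives, DESeq2 1.42.0 and limma 3.58.1, under R 4.3.3. Promoters came from RefSeq (GRCm38.p6). Floors from 0 counts cover counting error only.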

Additional observations from a re-analysis of the deposited data

Results flagged for a closer look

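For 24 named genes, each genotype was searched for a library far from the other 4. Chance alone meets the criterion in about 1 in 20 groups of normally distributed values. It was met in 8 of 48 groups. CPM are bounded at 0 and the groups share the same libraries, so these rates cannot be compared. Among the members, Eln+/+ replicate 2 held 11.1 CPM of Aldh1a2, with the next library of that genotype at 2.74 CPM, and Eln-/- replicate 2 held 2.71 CPM of Cyp26b1, with the next at 0.370 CPM. The sparse Eln+/+ replicate 1 stood apart for 4 genes, at 472 CPM of Fabp5, 635 CPM of Rarres2 and 16.002 CPM of Rarres1, each the highest of its group, and at 9.59 CPM of Rdh11, the lowest. Eln-/- replicate 1 stood apart at 17.7 CPM of Ncoa3, and at 0.493 CPM of Eln, where the next Eln-/- library was at 0.0726 CPM.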

How the results depend on the processing

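Of 368 recomputed log2 fold changes, 23 genes under 16 alternatives each, 343 kept their sign. Those of 9 genes other than Eln kept it throughout, 1 of them Adh1. Adh1 was picked for genotypes that did not overlap in CPM, so its kept sign is no sign of stability. No member, pathway or responsive gene passed the threshold under any alternative run. Over all genes, edgeR's 0 higher and 0 lower calls became 4 higher and 2 lower with DESeq2 and 5 higher and 2 lower with limma-voom, and leaving out 1 library gave 0 to 1 lower, the 1 without Eln-/- replicate 1. Eln had an adjusted p of 1.26e-20 with DESeq2 and 0.00781 with limma-voom, against 0.152 in edgeR. The sign turned for Rdh14 (-0.0063) with no filter on low counts, for Dhrs3 (0.16) and Ncor1 (-0.10) with limma-voom, and for Crabp1 (-0.32), Adh5 (-0.014) and Meis1 (0.15) without the 3 sparse libraries. The cause was not tested. With 1 library left out at a time, log2 fold changes crossed 0 for Aldh1a2 (-0.17 to 1.52), Rarg (-1.17 to 0.11), Rdh14 (-0.33 to 0.37), Dhrs4 (-0.20 to 0.068), Rdh11 (-0.44 to 0.038), Rdh10 (-0.00097 to 0.66), Ncoa3 (-0.062 to 1.12), Rarres2 (-0.98 to 0.18) and Meis1 (-0.54 to 0.092). The median of the 8 members, 0.03, ranged from -0.67 to 0.13.

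If replicate numbers pair the libraries could not be settled. The main axis of variation among libraries (first principal component, 50.8% of the variance) set the sparse libraries apart from all others. Numbers 1, 4 and 5 each join a sparse library with a library that is not sparse. The correlations that follow therefore cannot separate a lack of pairing from the difference between sparse and other libraries. Deviations from the genotype means correlated at -0.556, 0.510, 0.118, -0.381 and 0.0920 between libraries with numbers 1 to 5, and 1 of 5 Eln-/- libraries, number 2, correlated best with its own number. With the replicate block 0 genes were higher and 0 lower, the median of the members was -1.42 and Aldh1a2 turned to -1.47.

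A biological coefficient of variation of 1.16 across genes limits what 5 libraries a genotype can show, so a p above the threshold does not show that a gene was alike in both. Members at 0 in a sparse library were below 3 counts there, which does not show that they were absent.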
